A study of Mus musculus with 6 samples.

Results

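Non-laminin proteins of the basement membrane, with a pair of cell surface receptors for it, were followed in mammary glands of mice whose stroma lacked the matrix metalloproteinase gene Mmp14. The 8 genes were taken as a list by name: the nidogens Nid1 and Nid2, the heparan sulfate proteoglycans perlecan (Hspg2) and agrin (Agrn), the secreted calcium-binding proteins Smoc1 and Smoc2, dystroglycan (Dag1) and basal cell adhesion molecule (Bcam). All 8 were measured among 22180 genes, each by the probe set with the highest mean of those that carry its symbol alone. RNA came from whole inguinal glands of C57BL/6J mice aged 4 weeks. The wild-type group, Mt1-mmp(+/+), and the stromal knockout group, Dermo1Cre/Mt1-mmp(fl/fl), had 3 biological replicates each, with 1 Affymetrix array per replicate, and the wild-type mice were littermates. Mt1-mmp is the older name of Mmp14. The Dermo1 promoter drives Cre in mesenchymal cells, and since the labels place Cre only with the floxed allele, an effect of Cre and one of the lost gene cannot be told apart. The comparison asks how these transcripts differ in the whole gland when stromal cells lack Mmp14.

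Basement membranes are thin matrix sheets under epithelium and endothelium and around fat and muscle cells. Laminin and type IV collagen form separate networks in them, which nidogens link, while perlecan and agrin bind laminin and carry heparan sulfate chains that hold growth factors. Dystroglycan and Bcam are laminin receptors on cells, and in the mammary gland contact with laminin is known to support the polarity and differentiation of the ductal epithelium.

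Of the 8 genes, Agrn fell and 0 rose at an adjusted p under 0.05 (limma, Benjamini-Hochberg over all genes). Among all genes, 7.2% fell, 5.05% rose and 12.2% passed in either direction, so the share of 1 in 8 members lies near the background. These are 1596 falls and 1121 rises, against 1178 and 3155 with arrays centred on their medians, where 0 members fell and 1 rose. Without adjustment, 2 members were lower (Agrn and Bcam) and 1 was higher (Smoc1) at a p under 0.05. The median difference over the 8 members was 0.010 log2 units, beside 0.032 over all genes, with 4 members on the negative side. All values are log2 signals, differences are knockout minus wild type, and n = 3 arrays per group throughout. Signals of different genes come from different probes and are not ranked against each other.

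**Figure D1:**
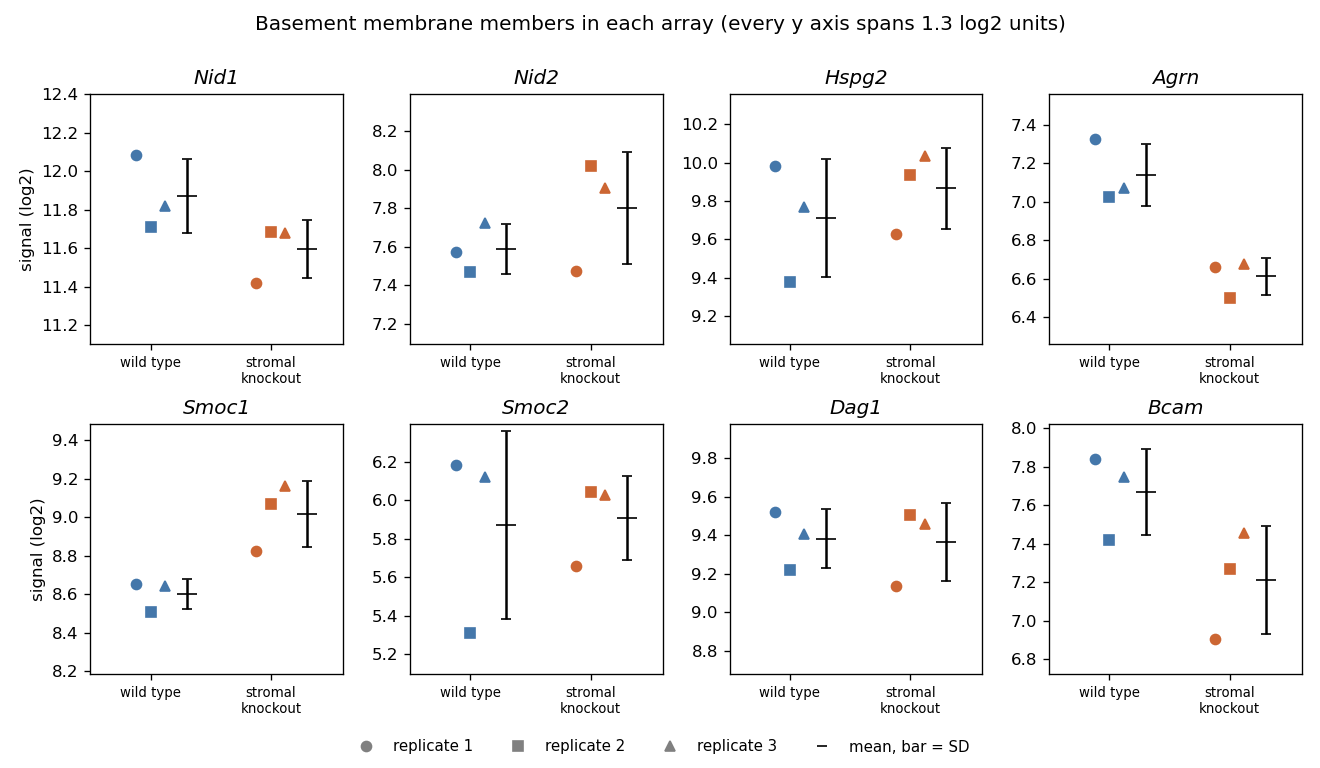
Log2 signal of the 8 genes in each array, wild type in blue and stromal knockout in orange, with the marker shape giving the replicate number and the black bar the group mean with its SD. The groups separate for Agrn and Nid1 (knockout lower) and for Smoc1 (knockout higher) and overlap for the other genes.

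Mmp14 itself lay at 11.18, 10.55 and 10.90 in wild type and at 8.57, 8.55 and 8.75 in the knockout, so the arrays go with their labels. Array medians over the 22180 genes were 4.64 to 4.71 log2 units in wild type and 4.45 to 4.53 in the knockout, so they separated by group. Wild type 1 stood apart by its skeletal muscle genes. The summed linear signal of 18 such genes was 1588 in that array and 268 to 386 in the other 5. Of these 18 genes, 0 passed in either direction (limma), with 2 lower and 1 higher at an unadjusted p under 0.05.

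The nidogens are rod-shaped glycoproteins that bind both laminin and type IV collagen. Nid1 lay at 12.08, 11.71 and 11.82 in wild type and at 11.42, 11.68 and 11.68 in the knockout. All 3 knockout arrays were below all 3 wild-type arrays, with wild type 2 and knockout 2 as the nearest pair. Of all genes, 15.4% showed that separation downwards. The difference of -0.28 ± 0.14 (SE; 95% interval -0.61 to 0.058) did not pass (limma adjusted p = 0.277). The other Nid1 probe set gave -0.32 ± 0.14, so both probe sets pointed the same way. Nid2 lay at 7.57, 7.47 and 7.73 in wild type and at 7.47, 8.02 and 7.91 in the knockout. Its groups overlapped because knockout 1 sat at the level of the lowest wild-type array. The difference was +0.21 ± 0.17 (95% interval -0.18 to 0.60, limma adjusted p = 0.479).

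Related members were also compared within each array, where a shift equal for all genes of an array cancels. A shift that depends on the signal level would remain, and was not tested. Nid2 minus Nid1 was -4.51, -4.24 and -4.09 in wild type and -3.95, -3.66 and -3.77 in the knockout. The 3 knockout values were all above the wild-type ones, by 0.49 ± 0.15 (SE). An exact two-sided permutation test gave p = 0.1, which is as low as 3 against 3 arrays can go, and 0.133 after adjustment over the 4 pairs compared. This test therefore cannot reach 0.05 for any of the 4 pairs. How often pairs of other genes separate in this way was not counted. Among single genes, 15.4% separated downwards and 17.2% upwards.

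Perlecan and agrin are large proteoglycans with laminin-like globular domains that bind dystroglycan. Agrin was first known for clustering receptors at the nerve-muscle junction, and is also made by epithelium and endothelium. Agrn lay at 7.32, 7.02 and 7.07 in wild type and at 6.66, 6.50 and 6.67 in the knockout. Every knockout array was below every wild-type array, and the spread within a group (SD 0.16 and 0.098) was small against the gap. Agrn fell by 0.53 ± 0.13 log2 units (95% interval -0.83 to -0.23), which is 69.3% of wild type (limma adjusted p = 0.0357). Tested alone by exact permutation it had p = 0.1. The call was lost without any 1 of the 6 arrays: the adjusted p was 0.107, 0.0538 and 0.0762 without wild type 1, 2 and 3, and 0.0763, 0.120 and 0.0635 without knockout 1, 2 and 3. The difference kept its sign in all of these, between -0.59 and -0.44. Centring the arrays on their medians shifted the typical gene upwards, from a median difference of 0.032 to 0.22, and Agrn then differed by -0.34 (adjusted p = 0.0875). Over the 15 alternatives the adjusted p ran from 0.0143 to 0.120.

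Hspg2 lay at 9.98, 9.38 and 9.77 in wild type and at 9.63, 9.94 and 10.03 in the knockout. The groups overlapped, with wild type 2 the lowest of the 6 arrays and knockout 3 the highest. The difference of +0.15 ± 0.18 (95% interval -0.27 to 0.58) did not pass (limma adjusted p = 0.657), and it was -0.012 without wild type 2. Agrn minus Hspg2 within each array was -2.66, -2.36 and -2.70 in wild type and -2.97, -3.44 and -3.36 in the knockout. The knockout values were all lower, by a mean of -0.68 ± 0.18 (exact permutation p = 0.1, adjusted 0.133).

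**Figure D2:**
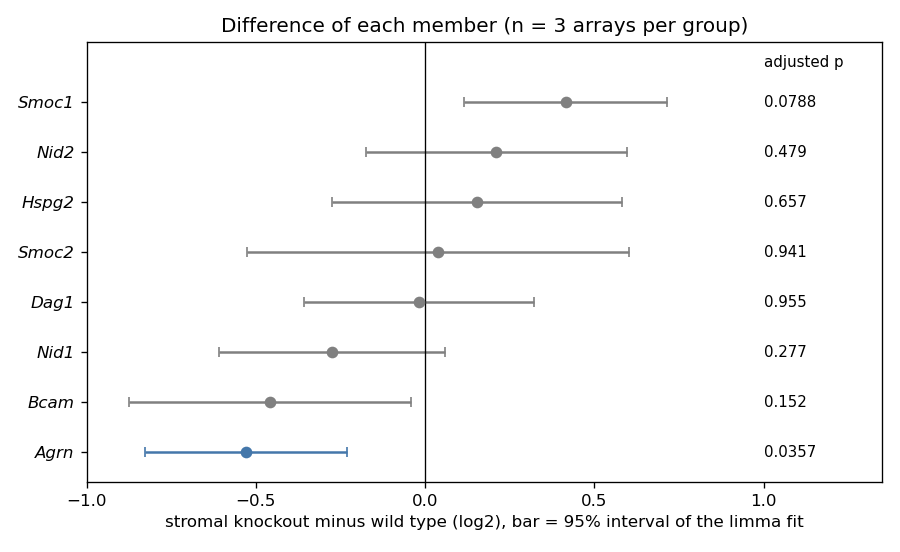
Difference between stromal knockout and wild type (log2) for each of the 8 genes, with the 95% interval of the limma fit and the adjusted p at the right. Agrn, in blue, is the gene that passed (adjusted p = 0.0357), and the intervals of Bcam and Smoc1 lie on 1 side of 0 although their adjusted p-values are 0.152 and 0.0788.

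Smoc1 and Smoc2 belong to the SPARC family of matricellular proteins and are found at basement membranes. SMOC1 is known as a modulator of bone morphogenetic protein signalling. Smoc1 lay at 8.65, 8.51 and 8.64 in wild type and at 8.82, 9.07 and 9.16 in the knockout. All 3 knockout arrays were above all 3 wild-type arrays, a separation that 17.2% of all genes showed upwards. The difference was +0.42 ± 0.13 (95% interval 0.12 to 0.72), 1.33-fold, and did not pass (limma adjusted p = 0.0788). It passed with an intensity trend in the variance model (adjusted p = 0.0216), with a robust trend (0.0209) and with arrays centred on their medians (+0.60, adjusted p = 0.0152), and its adjusted p ran from 0.0152 to 0.201 over the 15 alternatives. Smoc1 was the member nearest to the threshold among those that missed it.

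Smoc2 lay at 6.18, 5.31 and 6.12 in wild type and at 5.66, 6.04 and 6.03 in the knockout. Wild type 2 was the lowest of the 6 arrays, and the wild-type SD of 0.49 was the widest of any member. The difference of +0.038 ± 0.24 (95% interval -0.53 to 0.60, limma adjusted p = 0.941) became -0.24 without wild type 2. Smoc2 minus Smoc1 within each array was -2.47, -3.20 and -2.52 in wild type and -3.17, -3.02 and -3.13 in the knockout. These values overlapped between the groups, with a mean change of -0.38 ± 0.24 (exact permutation p = 0.4, adjusted 0.4). Without wild type 2 the change was -0.61 and the groups separated (exact p = 0.1, the smallest for 2 against 3), so that array sets whether the Smoc pair overlaps. In the rest of the SPARC family, 1 of 6 genes fell and 0 rose (0 higher without adjustment). Fstl1, which encodes the secreted glycoprotein follistatin-like 1, fell by 0.72 ± 0.13 (limma adjusted p = 0.0113), while Sparc itself differed by +0.028 ± 0.12 (adjusted p = 0.907).

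Dystroglycan is made as 1 precursor that is cut into an outer subunit, which binds laminin, perlecan and agrin through its sugar chains, and a membrane subunit, which binds dystrophin or utrophin inside the cell. Dag1 lay at 9.52, 9.22 and 9.40 in wild type and at 9.13, 9.50 and 9.46 in the knockout. Both the lowest and the second highest of the 6 arrays were knockout arrays. The difference was -0.017 ± 0.15 (95% interval -0.36 to 0.32, limma adjusted p = 0.955), and it changed sign in 4 of 15 alternatives. Bcam, also called the Lutheran glycoprotein, is an immunoglobulin-like receptor for the laminin alpha 5 chain. Its values were 7.84, 7.42 and 7.75 in wild type and 6.91, 7.27 and 7.46 in the knockout. Knockout 3 lay just above wild type 2 and the others were separate. The difference of -0.46 ± 0.18 (95% interval -0.87 to -0.042) did not pass (limma adjusted p = 0.152), nor did it in any of the 15 alternatives (adjusted p 0.0798 to 0.346).

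Set against Dag1 within the same array, Bcam was relatively lower in all 3 knockout arrays. Bcam minus Dag1 was -1.68, -1.80 and -1.66 in wild type and -2.23, -2.24 and -2.00 in the knockout. The groups did not overlap, and the change of -0.44 ± 0.089 had the smallest SE of the 4 pairs (exact permutation p = 0.1, adjusted 0.133). Leaving out any 1 array kept it between -0.52 and -0.40.

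**Figure D3:**
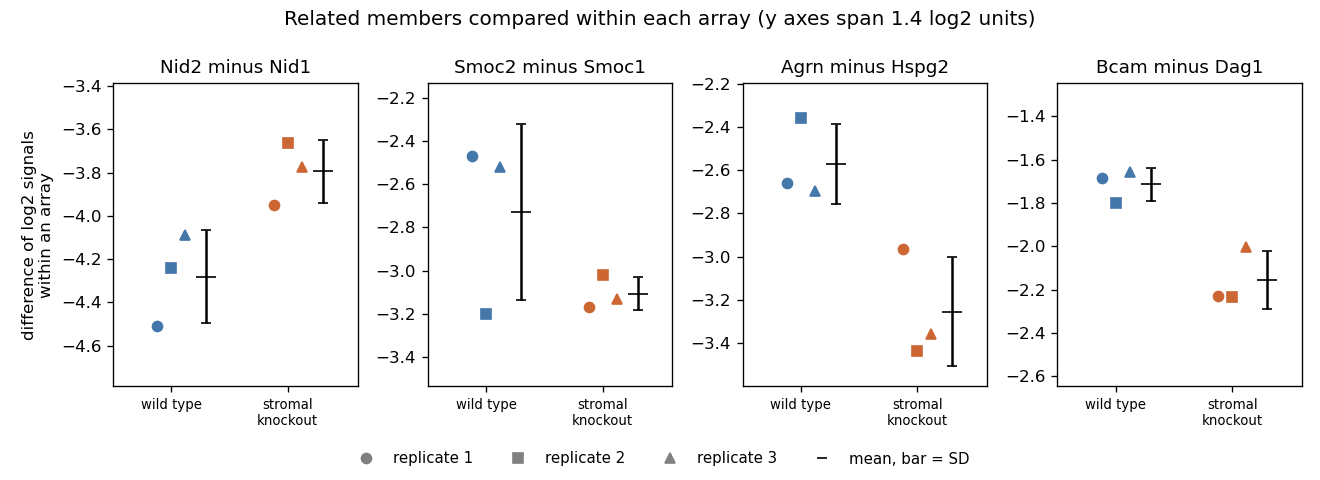
Difference of the log2 signals of 2 related members within the same array, for 4 pairs, with wild type in blue, stromal knockout in orange and the group mean with its SD in black. The groups separate for Nid2 minus Nid1 (knockout higher) and for Agrn minus Hspg2 and Bcam minus Dag1 (knockout lower), and overlap for Smoc2 minus Smoc1 through wild type 2.

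Within each group, 1 array read low for nearly all members. Wild type 2 was the lowest wild-type array for all 8 members and wild type 1 the highest for 7, the exception being Nid2, which was highest in wild type 3. Knockout 1 was the lowest knockout array for 7 members, and for Agrn the lowest was knockout 2. The highest knockout array was knockout 2 for 4 members and knockout 3 for the other 4. The median deviation of the members from their group mean was +0.18, -0.16 and +0.050 in wild type 1 to 3 and -0.23, +0.080 and +0.11 in knockout 1 to 3. The array medians over all genes were lowest in the same arrays, so this order is not particular to the members. They were 4.71, 4.64 and 4.65 in wild type 1 to 3 and 4.45, 4.47 and 4.53 in knockout 1 to 3. Leaving out wild type 2 gave a members' median of -0.17, and leaving out knockout 1 gave +0.13. The mean log2 level of 14 endothelial genes was also lowest in wild type 2 and knockout 1, at +0.057, -0.096 and +0.039 in the wild-type arrays and +0.23, +0.40 and +0.66 in the knockout arrays, all against the wild-type mean. For 15 fibroblast genes it was +0.14, -0.16 and +0.019 in wild type and -0.69, -0.61 and -0.52 in the knockout. Wild type 2 and knockout 1 were likewise lowest for luminal markers (-0.092 and -2.21) and pericyte markers (-0.027 and +0.26). So they were for the other basement membrane proteins described below, at -0.16 and -0.95. For basal and myoepithelial, adipocyte, thermogenic adipocyte, skeletal muscle, Schwann cell, macrophage and lymphocyte markers another array was lowest in at least 1 group. Basal and myoepithelial markers, for example, lay at -1.57 in knockout 1 and -1.71 in knockout 2. The part of any cell type in the low arrays was not tested.

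In the laminins and other basement membrane proteins, 13 of 30 genes fell and 0 rose (19 lower and 2 higher at an unadjusted p under 0.05), with a median difference of -0.69. Hmcn1, the extracellular fibulin-family protein hemicentin 1, fell by 2.62 ± 0.23 log2 units to 16.3% of wild type (limma adjusted p = 0.000754). Frem1, a basement membrane protein that acts with Fras1 and Frem2 at the border of epithelium and dermis, fell by 2.58 ± 0.30. The laminin chain genes Lama1 and Lama3 fell by 2.10 ± 0.25 and 1.48 ± 0.15. Lama5, which encodes the ligand chain of Bcam, fell by 1.30 ± 0.20, and Egflam, which encodes the dystroglycan ligand pikachurin, by 1.39 ± 0.20 (limma adjusted p = 0.00472). Col4a1 and Col4a2, the main chains of type IV collagen, differed by +0.16 ± 0.21 and +0.097 ± 0.18 (adjusted p = 0.685 and 0.782). Of the other type IV chains, Col4a5 fell by 0.68 ± 0.15 (limma adjusted p = 0.0258). Col4a6 differed by -1.12 ± 0.32 (limma adjusted p = 0.0613), Col4a3 by -0.29 ± 0.16 and Col4a4 by -0.14 ± 0.14, and these did not pass. Lama5, Egflam, Sparc and the collagen chains were named after their values had been seen.

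Most genes for the partners of dystroglycan did not pass. In the dystrophin-glycoprotein complex, 2 of 12 genes fell and 1 rose, with a median of +0.17. The cytoplasmic adaptors Dtnb (beta-dystrobrevin) and Sntb2 (beta-2-syntrophin) fell by 0.94 ± 0.11 and 0.88 ± 0.13. Utrn, the dystrophin relative of non-muscle tissue, rose by 0.43 ± 0.11 (limma adjusted p = 0.0457). Of 13 genes for the sugar chain of dystroglycan, 1 fell and 1 rose, with a median of +0.16. Large2, a glycosyltransferase that extends the laminin-binding chain, lay at 6.45 ± 0.29 (SD) in wild type and at 3.86 ± 0.37 in the knockout. The fall of 2.59 ± 0.22 log2 units left 16.6% of wild type (limma adjusted p = 0.000715), with all knockout arrays below all wild-type arrays. B4gat1, which builds the primer for that chain, rose by 0.48 ± 0.11 (adjusted p = 0.0309). The transcript of dystroglycan itself differed by -0.017 in the same glands.

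Among 13 other genes for receptors of laminin, collagen and agrin and for proteins associated with them, 3 fell and 1 rose, with a median of -0.064. The integrin genes Itga2, Itgb4 and Itga3 fell by 1.30 ± 0.13, 0.92 ± 0.15 and 0.76 ± 0.18, and Itgb4 also stands in the basal marker list. Itga7, an integrin chain of muscle and vessel wall, rose by 1.09 ± 0.15 to 212% of wild type (limma adjusted p = 0.00469). Lrp4, the agrin receptor, differed by -0.21 ± 0.22 (adjusted p = 0.600) and was named after its value had been seen. Of 28 genes that build or edit heparan sulfate, the chain on perlecan and agrin, 4 fell and 0 rose (0 higher at an unadjusted p under 0.05), with a median of -0.13. Hpse2 and Hpse, encoding a heparanase-like protein and heparanase, fell by 1.74 ± 0.22 and 1.33 ± 0.16, the sulfotransferase gene Ndst3 by 1.26 ± 0.13 and the polymerase gene Ext1 by 0.41 ± 0.11 (adjusted p = 0.0479).

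**Figure D4:**
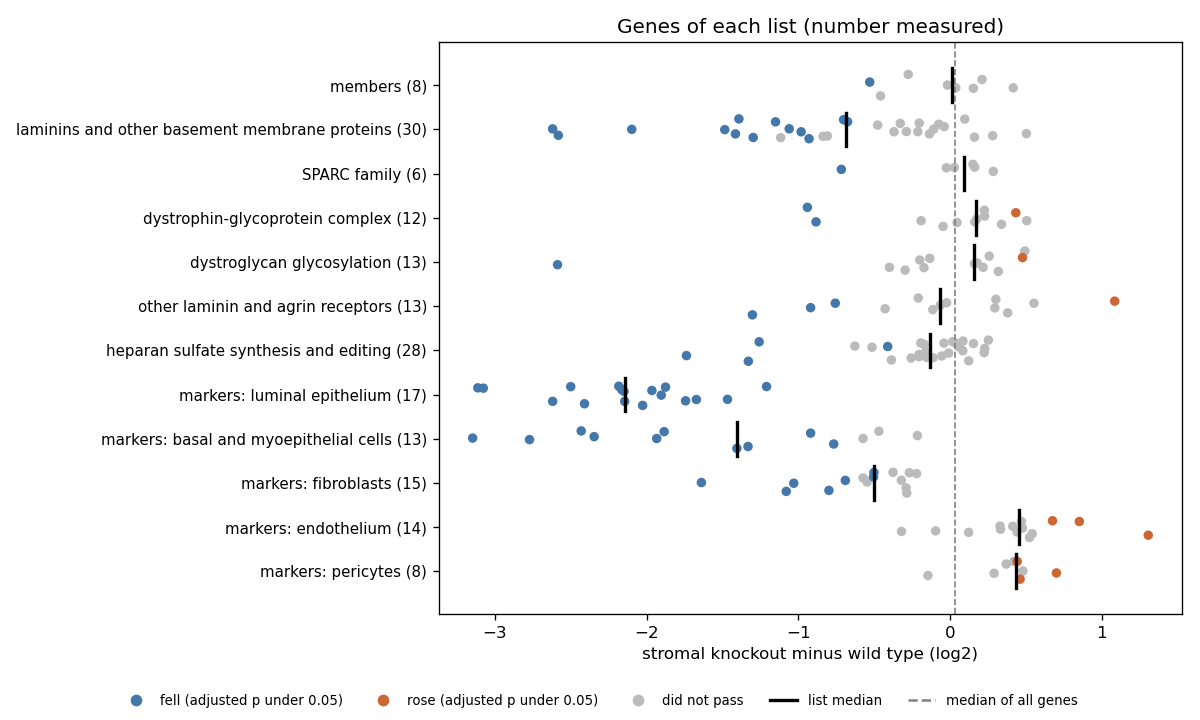
Difference between stromal knockout and wild type (log2) for every measured gene of each list, 1 point per gene, blue for genes that fell, orange for genes that rose and grey for those that did not pass, with the list median as a black bar and the median of all genes (0.032) dashed. The 8 members lie around 0, the other basement membrane proteins reach down to -2.62, and the luminal markers all lie below 0.

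The glands also differed in markers of the cells that make basement membrane, and in bulk tissue fewer cells of a type and less RNA per cell cannot be told apart. All 17 luminal epithelial markers fell (median -2.14), and their summed linear signal was 3014 to 3512 in wild type and 623 to 778 in the knockout. Of 13 basal and myoepithelial markers, 10 fell and 0 rose (0 higher without adjustment), with a median of -1.40 and sums of 4295 to 4956 and 2171 to 2849, of which Acta2, a smooth muscle actin that vessels also express, gives the largest share. Krt14 read 5.20 to 5.84 in wild type and 2.18 to 2.43 in the knockout, where it is under the 33rd percentile of gene levels (2.68). Of 15 fibroblast markers, 7 fell and 0 rose (0 higher without adjustment), with sums of 23639 to 28817 and 18071 to 20044. Against these falls, Agrn stood at 69.3% of wild type. The part of these cell types in the difference of Agrn or Bcam was not tested.

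Most vessel markers and most of the 11 adipocyte markers did not pass, and those that did were higher in the knockout. Of 14 endothelial markers, 3 rose and 0 fell (1 lower and 11 higher without adjustment), with sums of 4513 to 4636 in wild type and 5220 to 7023 in the knockout. The endothelial gene Emcn differed by -0.32 (limma adjusted p = 0.113). Cldn5, a tight junction protein of endothelium, rose by 1.31 ± 0.23 and the growth factor receptor gene Kdr by 0.85 ± 0.12. Of 8 pericyte markers, 3 rose and 0 fell (0 lower without adjustment), with sums of 2056 to 2282 and 2867 to 3259 and Mcam at +0.70 ± 0.12. Of 11 adipocyte markers, 3 rose and 0 fell (0 lower without adjustment), with sums of 31380 to 32170 and 36569 to 38686. Of 9 thermogenic adipocyte markers, 6 rose and 0 fell (0 lower without adjustment), with sums of 830 to 2428 and 5896 to 7637. Ucp1 differed by +3.04, Elovl3 by -0.67 and Dio2 by -0.65, and these did not pass (limma adjusted p = 0.0709, 0.278 and 0.220). Of 10 macrophage markers 7 fell, of 9 lymphocyte markers 3 fell, and of 6 Schwann cell markers Sox10 alone fell. The part of vessel and fat cells in the higher Smoc1 readings of all 3 knockout arrays was not tested.

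Genes with the profile nearest to Agrn over the 6 arrays were sought among the 11082 other genes at or above the median level, each centred on its own mean. The smallest root mean square distances were those of Mfap2 (0.039 log2 units), which encodes a microfibril-associated glycoprotein, Zfp266 (0.048) and Klf5 (0.048), a transcription factor expressed in epithelia. Their differences between the groups were -0.49, -0.56 and -0.53, which the choice by distance over the same arrays brings near the -0.53 of Agrn.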

How the data were processed

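Total RNA from 6 glands, 400 ng each, was labelled and hybridised to Affymetrix arrays, per the labels' protocols. The values are the log2 signals the authors deposited, and the submitters' processing notes name RMA and limma without versions. Base 2 was inferred from RMA and the value range. Of 41345 probe sets, 23521 carry 1 symbol in the platform annotation, which gave 22180 genes. All were fitted together with limma 3.58.1 in R 4.3.3 (lmFit and eBayes, no trend, Benjamini-Hochberg, threshold 0.05). Single members and within-array differences of pairs were tested by exact permutation. The fit was also run on simulated data with shifts larger than the difference of any member, so that run does not cover changes of the members' size. All 8 members lay above the 33rd percentile of gene levels. The members, 17 lists, of which 232 of 252 entries were measured, and the rule for named genes (up to 4 passing genes per list, and the 3 nearest profiles to a called member) were chosen with earlier results of these data known. The labels give no batch, and the number of arrays limits the precision. No coordinates are given because the values name no genome assembly.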

Additional observations from a re-analysis of the deposited data

How the results depend on the processing

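Each of the 15 alternatives kept the negative sign of Agrn, Bcam and Nid1 and the positive sign of Smoc1 and Nid2. The number of members that fell was 0 in place of 1 with arrays centred on their medians, with every probe set tested (Agrn adjusted p = 0.0958) and with the replicate block (0.0672), and 0 without any 1 array; in the other 6 it was 1. The number that rose was 1 in place of 0, always Smoc1, with an intensity trend, a robust trend or centred arrays. Without low genes, where fewer genes are tested, Smoc1 had an adjusted p of 0.0504. The same replicate numbers did not pair the arrays (correlations of deviations -0.052 to -0.032 for same-numbered arrays). Genes called numbered 2717 in the main setting, 1923 with the replicate block, 4333 with centred arrays (3155 rose and 1178 fell, against 1121 and 1596), 1331 with every probe set tested and 1490 to 2304 without 1 array. The sign turned for Dag1 with array weights (+0.0019), with centred arrays (+0.17) and, without 1 array, in a range of -0.099 to +0.098. It also turned for Smoc2 (-0.24 to +0.19) and Hspg2 (-0.012 to +0.29) without 1 array. The cause was not tested.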
